A study of Mus musculus with 6 samples.

Results

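Amino acid and peptide transporters are the membrane proteins through which cells take up, exchange and release the building blocks of protein. The 37 genes described here, of 18193 genes named on the array, belong to the Slc1, Slc3, Slc6, Slc7, Slc15, Slc16, Slc36, Slc38 and Slc43 families. They were chosen by symbol, with earlier results of these data known. Each is shown by the probe set (a group of short probes against 1 transcript) with the highest mean over the 6 arrays. Only probe sets annotated to that gene alone were used. The mammary glands came from virgin FVB/N females aged 4 months. The 3 WT samples were wild type and the 3 Cav-3KO samples were knocked out for caveolin-3, the caveola coat protein of muscle cells, with no treatment. The tissue is labelled mammary gland, which holds epithelium, fat, vessels, immune cells and connective tissue. Neither the knockout allele nor whether each sample was a different mouse was given in the sources used here. The p-values therefore set each difference against the spread between these samples, which may be technical.

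In the lactating gland, secretory epithelial cells draw large amounts of amino acids from blood to make milk protein. Sodium-coupled carriers such as those of the Slc1 and Slc38 families concentrate amino acids in the cell, exchangers of the Slc7 family trade them for others, and proton-coupled Slc15 carriers bring in short peptides. Several Slc7 proteins, the light chains, reach the cell surface only when joined to a heavy chain, Slc3a2 or Slc3a1. Adipocytes, which fill most of the virgin gland, carry transporters of their own, among them Slc7a10 and Slc36a2.

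In knockout glands 3 transporter genes rose and 4 fell. Slc7a5, which carries leucine and other large neutral amino acids, rose 2.92-fold, the peptide carrier gene Slc15a2 1.99-fold, and Slc7a1, which carries arginine and lysine, 1.69-fold. The exchanger gene Slc7a10, which handles serine, glycine and other small neutral amino acids, fell by 1.32 on the log2 scale. Slc36a2, for glycine and proline, fell by 1.03, Slc16a10, for aromatic amino acids, by 0.90 and Slc6a6, for taurine, by 0.72. These 7 genes, 18.9% of the 37, passed limma's test at an adjusted p under 0.05, which 16.2% of all named genes also did. By direction, 8.11% of the transporter genes were higher, where 7.65% of all genes were, and 10.8% were lower, where 8.51% of all genes were. At this threshold the shares were near the background, and the median log2 difference was −0.02 beside −0.01 over all genes. At an adjusted p under 0.10 the share was 40.5% of the transporters and 24.5% of all genes, and at an unadjusted p under 0.05 it was 51.4% and 33.6%. The median size of the difference, ignoring its sign, was 0.37 for the transporters and 0.17 for all genes. With dim probe sets left out of the fit, 29% of the transporters and 26.9% of all genes passed at an adjusted p under 0.05. The transporters were chosen with earlier results of these data known, so these shares and sizes describe them and do not test the family. Among the transporters 45.9% had groups that did not overlap, where 38.3% of all genes did. In 9 of these 17 genes every knockout array was above wild type (24.3%, all genes 18.5%), and in 8 every one was below (21.6%, all genes 19.8%).

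**Figure D1:**
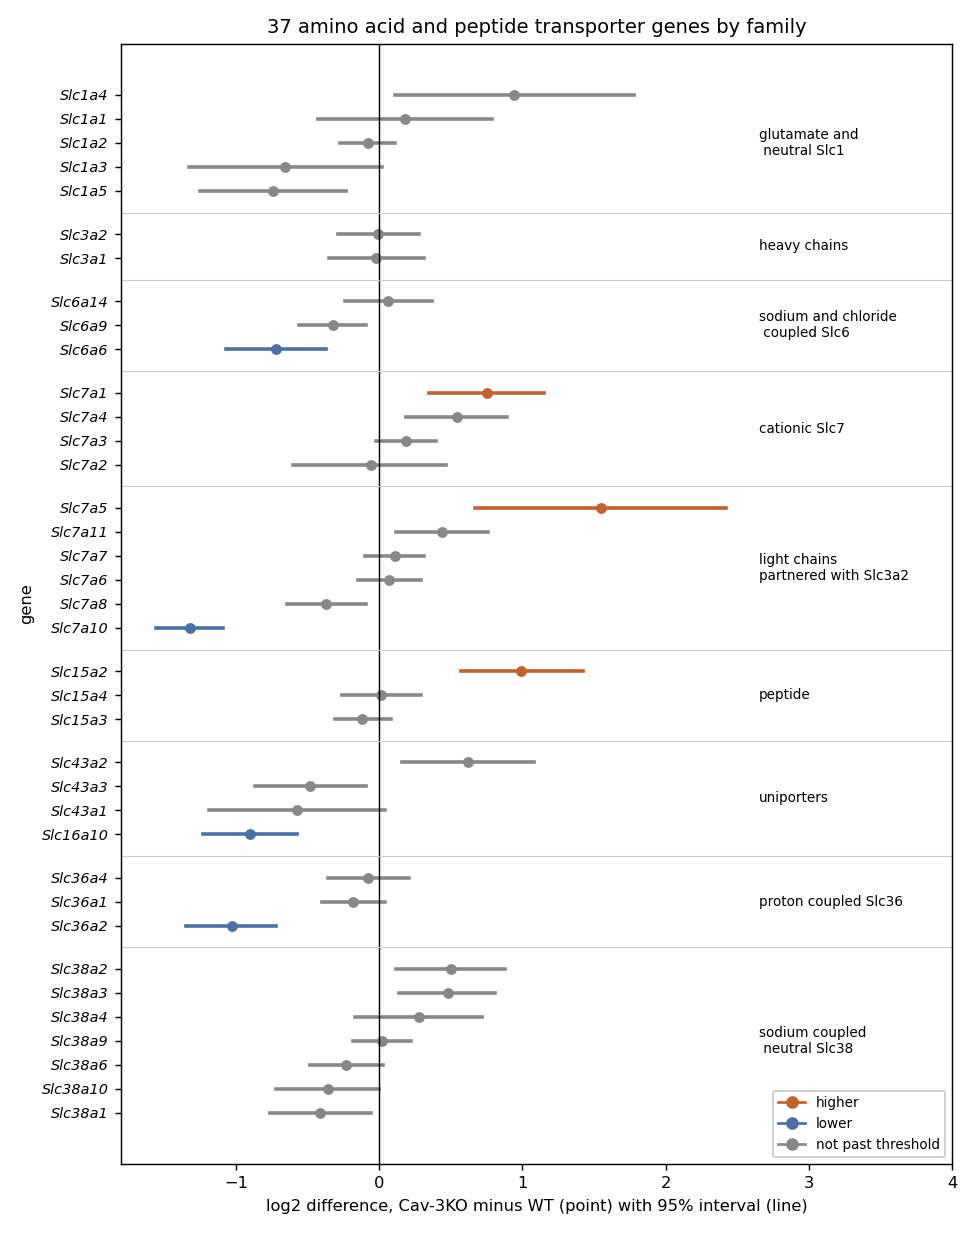
The log2 difference, Cav-3KO minus WT, of each of the 37 genes is plotted as a point with its 95% interval as a line, in blocks by family. Slc7a5 is the highest at 1.55 and Slc7a10 the lowest at −1.32, both within the block of light chains, and the heavy chains lie at 0.

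For 26 of the 37 genes a promoter was found in a RefSeq table of build GRCm38.p6, running from 250 bases before to 50 after a start site. Each was searched on both strands for the STAT5 gamma-activated site TTCNNNGAA, bound by the transcription factor of prolactin signalling, and for the C/EBP-ATF composite site TGATGNAA, through which amino acid shortage acts on many genes. The promoters of 2 genes that rose, of the gene that fell furthest and of Slc7a11, which holds matches to both motifs, are shown so that the sequence around their start sites can be compared, and capitals mark the matches.
Slc15a2, chr16:36784913-36785212, minus strand: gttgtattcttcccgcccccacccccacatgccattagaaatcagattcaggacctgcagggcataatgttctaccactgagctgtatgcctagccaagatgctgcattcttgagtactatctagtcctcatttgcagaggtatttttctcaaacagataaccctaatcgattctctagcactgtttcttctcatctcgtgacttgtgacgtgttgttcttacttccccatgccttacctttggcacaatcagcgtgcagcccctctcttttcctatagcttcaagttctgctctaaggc
Slc7a1, the second of its 2 listed starts, chr5:148392766-148393065, minus strand: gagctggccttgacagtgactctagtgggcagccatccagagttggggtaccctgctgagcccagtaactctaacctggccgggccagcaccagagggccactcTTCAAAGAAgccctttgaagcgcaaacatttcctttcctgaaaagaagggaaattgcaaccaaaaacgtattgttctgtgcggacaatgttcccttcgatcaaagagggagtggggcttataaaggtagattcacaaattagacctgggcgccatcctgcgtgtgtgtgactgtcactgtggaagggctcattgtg
Slc7a10, chr7:35186135-35186434, plus strand: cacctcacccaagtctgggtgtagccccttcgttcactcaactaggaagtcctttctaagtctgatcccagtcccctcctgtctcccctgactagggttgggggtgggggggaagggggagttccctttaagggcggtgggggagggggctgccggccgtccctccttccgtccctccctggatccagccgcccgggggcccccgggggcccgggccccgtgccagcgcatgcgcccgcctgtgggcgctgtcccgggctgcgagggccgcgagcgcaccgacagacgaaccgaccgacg
Slc7a11, chr3:50443564-50443863, minus strand: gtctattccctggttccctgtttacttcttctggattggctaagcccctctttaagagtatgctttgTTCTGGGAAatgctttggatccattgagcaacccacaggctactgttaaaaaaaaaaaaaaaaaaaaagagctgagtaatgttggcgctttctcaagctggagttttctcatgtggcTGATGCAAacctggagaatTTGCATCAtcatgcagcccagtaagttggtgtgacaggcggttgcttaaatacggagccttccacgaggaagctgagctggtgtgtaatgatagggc

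The STAT5 letters stood in a promoter of 4 of the 26 genes (Slc1a3, Slc7a1, Slc7a11 and Slc38a9), and in 9.55% of the 27025 genes with a promoter in the table. The composite letters stood in 3 of 26 (Slc1a4, Slc7a7 and Slc7a11), and in 4.51% of all genes. Of the 4 genes past the threshold that had a promoter there (Slc15a2, Slc7a1, Slc7a10 and Slc16a10), 1 held the STAT5 letters, 146 bases before the second start of Slc7a1, and 0 held the composite letters. In Slc7a11, the light chain of the cystine and glutamate exchanger, the composite letters began 66 and 47 bases before the start site and the STAT5 letters 183 bases before it. No match overlapped the other motif. These are matches of letters, and binding was not measured here.

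The heavy chain shared by the light chains, Slc3a2 (also called CD98), was measured by 1 probe set. Its log2 values were 10.77, 10.75 and 10.50 in WT 1 to 3 and 10.58, 10.88 and 10.54 in Cav-3KO 1 to 3, and the groups overlapped, with Cav-3KO 2 highest and WT 3 lowest. The difference was −0.01 ± 0.12 (SE, adjusted p = 0.986), with a 95% interval from −0.29 to 0.28. Slc3a1, the heavy chain of kidney and gut transporters, differed by −0.02, with an interval from −0.35 to 0.31 (adjusted p = 0.946).

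The 6 light chains that pair with Slc3a2 did not move together: 1 rose, 1 fell and 4 did not pass. Slc7a5 had log2 values of 7.30, 7.14 and 6.84 in WT and 7.91, 9.60 and 8.41 in Cav-3KO. All knockout arrays were above all wild-type arrays, and the knockout arrays spread far more, with Cav-3KO 2 highest (8.64 ± 0.87 against 7.09 ± 0.23, SD, n = 3). The rise was 1.55 ± 0.38 (adjusted p = 0.0366). Without WT 1, 2 or 3 or Cav-3KO 3 the difference stayed at 1.65, 1.57, 1.42 and 1.67 but missed the threshold (adjusted p = 0.0750, 0.0908, 0.119 and 0.0870). Without Cav-3KO 2 it was 1.07 with an adjusted p of 0.0136. With limma's trended and robust prior the same 1.55 missed the threshold too (adjusted p = 0.0774).

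Slc7a10 had log2 values of 10.36, 10.29 and 10.07 in WT and 8.88, 8.95 and 8.92 in Cav-3KO. The knockout values lay within 0.1 of each other and more than 1 below the lowest wild-type value. The difference of −1.32 ± 0.10 (adjusted p = 0.000805), 2.50-fold, kept its call with any 1 array left out, at adjusted p between 0.00168 and 0.00578. Slc7a11 was 2.95, 2.80 and 3.15 in WT and 3.24, 3.33 and 3.65 in Cav-3KO. These groups did not overlap, but the difference of 0.44 ± 0.14 did not pass (adjusted p = 0.0792), and its mean lay at percentile 14.7 of all probe sets. Slc7a8, a carrier of large and small neutral amino acids, was below wild type on all 3 knockout arrays without passing (−0.37 ± 0.12, adjusted p = 0.0858). Slc7a6 and Slc7a7, which exchange cationic for neutral amino acids, differed by 0.07 and 0.11, with 95% intervals from −0.15 to 0.29 and from −0.10 to 0.31.

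Of the 4 Slc7 genes of the cationic branch, Slc7a1 rose and the other 3 did not pass. Slc7a1 had log2 values of 8.39, 8.30 and 8.31 in WT and 8.66, 9.29 and 9.32 in Cav-3KO. Wild-type arrays lay close together, and Cav-3KO 1 stood nearer to them than the other knockout arrays did. The rise was 0.75 ± 0.17 (adjusted p = 0.0290). In 5 of the 6 fits that left out 1 array the difference was 0.64 to 0.78 and missed the threshold, at adjusted p from 0.0590 to 0.101, and without Cav-3KO 1 it was 0.97 and passed (adjusted p = 0.00372). The mean of the gene's 3 probe sets differed by 0.44 and missed the threshold (adjusted p = 0.0575). Of those, a second differed by 0.57 (adjusted p = 0.123) and the dimmest by −0.01. Slc7a4, a member with no settled substrate, was 7.91, 7.69 and 7.74 in WT and 8.09, 8.66 and 8.22 in Cav-3KO (0.54 ± 0.15, adjusted p = 0.0565). It passed without Cav-3KO 1 (adjusted p = 0.0428) and with dim probe sets left out of the fit (0.0417). Slc7a3 was higher on all 3 knockout arrays by a mean of 0.19 (adjusted p = 0.225), and Slc7a2, the carrier of macrophages and liver, overlapped between groups (−0.06, interval −0.60 to 0.47).

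Among peptide carriers only Slc15a2, the high-affinity carrier for peptides of 2 or 3 amino acids, passed. Its log2 values were 9.68, 9.33 and 9.08 in WT and 10.67, 10.15 and 10.25 in Cav-3KO. The lowest knockout value was above the highest wild-type value, and the difference was 0.99 ± 0.18 (adjusted p = 0.0146). All 3 of its probe sets rose, and both dimmer ones rose further, by 2.14 ± 0.19 (4.41-fold) and 2.0 ± 0.19 (4.0-fold), with adjusted p of 0.00128 and 0.00151. The call held with any 1 array left out, at adjusted p up to 0.0495. Slc15a3 and Slc15a4, peptide and histidine carriers of lysosomes and endosomes in immune cells, differed by −0.12 (interval −0.31 to 0.08) and 0.01 (interval −0.26 to 0.29).

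**Figure D2:**
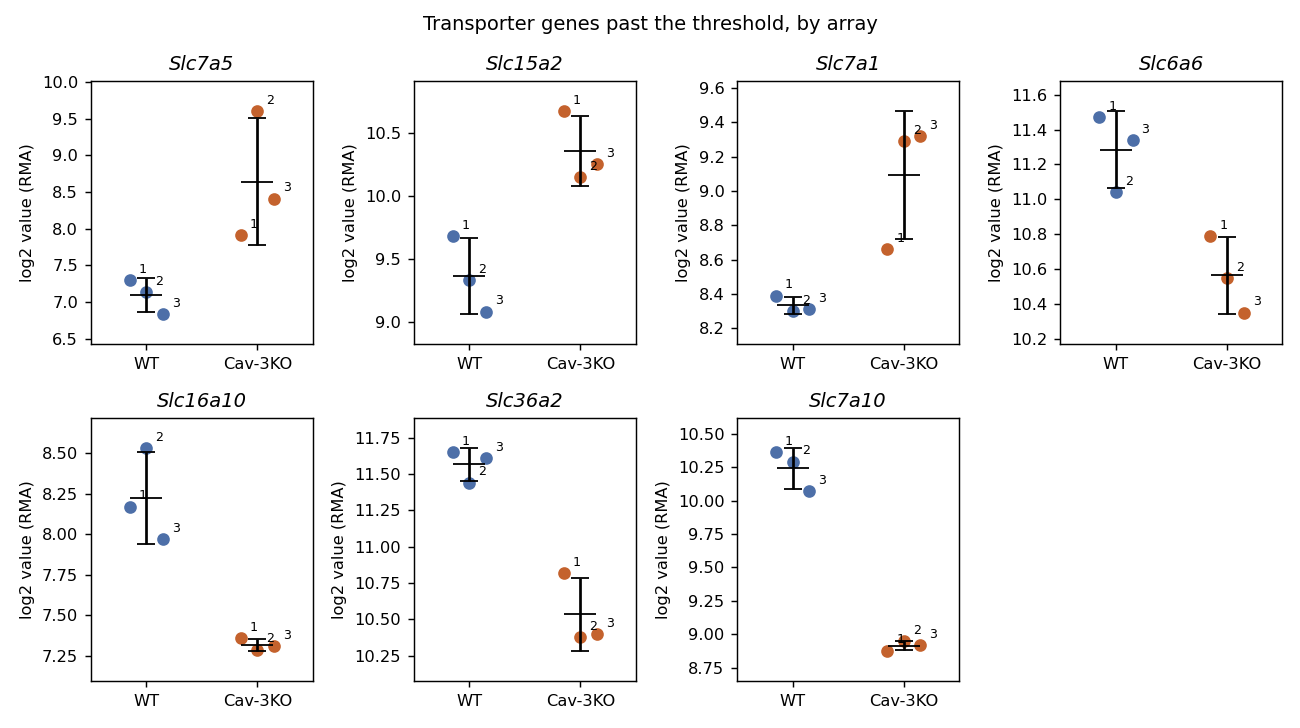
Log2 values of the 7 transporter genes past the threshold are plotted by array, numbered by replicate, with the group mean and SD in black; each panel has its own vertical scale, which does not start at 0. The groups do not overlap in any of the 7 panels, and the knockout values of Slc7a5 spread most (SD 0.87) while those of Slc7a10 and Slc16a10 spread least (SD 0.03).

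The 3 proton-coupled Slc36 genes included the clearest fall after that of Slc7a10. Slc36a2 had log2 values of 11.65, 11.44 and 11.61 in WT and 10.82, 10.38 and 10.40 in Cav-3KO. Groups were well apart, by a mean of −1.03 ± 0.14 (adjusted p = 0.00472, 2.05-fold), and the call held with any 1 array left out (adjusted p up to 0.0248). Slc36a1, an exporter of small amino acids from lysosomes, differed by −0.18 (interval −0.40 to 0.04). Slc36a4, a high-affinity carrier of proline and tryptophan, differed by −0.08 (interval −0.36 to 0.21).

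Of the 3 Slc6 genes, which use sodium and chloride, the taurine carrier gene Slc6a6 fell. Its values were 11.47, 11.04 and 11.34 in WT and 10.79, 10.55 and 10.35 in Cav-3KO and every knockout array was below every wild-type array. The difference was −0.72 ± 0.15 (adjusted p = 0.0213), and 3 of its 4 probe sets passed. Without WT 1, WT 3 or Cav-3KO 3 the difference was −0.62, −0.69 and −0.61 and missed the threshold (adjusted p = 0.0681, 0.0750 and 0.0751). The glycine carrier gene Slc6a9 was below wild type on all 3 knockout arrays without passing (−0.32 ± 0.10, adjusted p = 0.0819). Slc6a14, a carrier of broad range, was dim, at percentile 13.4 of all probe sets, and differed by 0.06 (interval −0.24 to 0.37).

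Facilitative carriers, which need no ion gradient, gave 1 call among 4 genes. Slc16a10 had values of 8.17, 8.53 and 7.97 in WT and 7.36, 7.29 and 7.31 in Cav-3KO. The 3 knockout arrays nearly coincided, and the difference of −0.90 ± 0.14 (adjusted p = 0.00850) held with any 1 array left out (adjusted p up to 0.0387). A second probe set fell as far (−0.97 ± 0.14), while the other 2 of its 4 did not pass. Slc43a2, which releases branched-chain and aromatic amino acids, was 9.22, 9.22 and 8.94 in WT and 9.38, 10.19 and 9.68 in Cav-3KO. Groups did not overlap, yet the shown probe set missed the threshold (0.62 ± 0.20, adjusted p = 0.0847), and 1 of the other 2 passed (0.85 ± 0.20, adjusted p = 0.0340). Slc43a1, its close relative, was 9.69, 8.69 and 9.18 in WT and 8.49, 9.02 and 8.33 in Cav-3KO, with overlapping groups (−0.57 ± 0.26, adjusted p = 0.209). Slc43a3, a nucleobase carrier of the same family, differed by −0.48 ± 0.17 (adjusted p = 0.108), and its groups overlapped.

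None of the 5 Slc1 genes passed by the probe set shown, and the pair of neutral carriers differed in sign. Slc1a4, a carrier of alanine, serine and cysteine, was 6.01, 6.37 and 5.76 in WT and 6.28, 7.85 and 6.83 in Cav-3KO. Cav-3KO 2 was more than 1 above the next array, and Cav-3KO 1 lay within the wild-type range. The difference of 0.94 ± 0.36 did not pass (adjusted p = 0.134), was 0.51 without Cav-3KO 2 and passed without Cav-3KO 1 (1.30, adjusted p = 0.0472). The other 2 probe sets of Slc1a4 differed by 0.96 and 0.99, without passing. Slc1a5, the main glutamine carrier of many dividing cells, was 12.59, 12.21 and 13.03 in WT and 12.21, 11.67 and 11.73 in Cav-3KO. These groups touched at 12.21 without overlapping, and the difference was −0.74 ± 0.22 (adjusted p = 0.0680). Its second probe set fell by 1.28 ± 0.21 (adjusted p = 0.0103), and the shown one passed without WT 2 (−0.94, adjusted p = 0.0426). With both probe sets averaged the difference was −1.01 (adjusted p = 0.0251).

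The Slc1 genes for glutamate showed no call by the probe set shown either. Slc1a3 was 10.17, 9.62 and 9.88 in WT and 9.16, 9.89 and 8.65 in Cav-3KO, where Cav-3KO 2 alone lay in the wild-type range. Its difference was −0.66 ± 0.29 (adjusted p = 0.191), and −0.98 without Cav-3KO 2 (adjusted p = 0.0227). All 6 of its probe sets were lower by sign, between −0.77 and −0.48, and 1 of them passed (−0.77 ± 0.17, adjusted p = 0.0247). Slc1a1 differed by 0.18 (interval −0.43 to 0.79), with Cav-3KO 2 at 7.39 and the other 5 arrays between 6.25 and 6.53. Slc1a2, best known from astrocytes, differed by −0.08 (interval −0.27 to 0.11).

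Of the 7 Slc38 genes, which include the sodium-coupled carriers of glutamine and other neutral amino acids, 0 passed by the probe set shown. Slc38a2, which many cells induce when short of amino acids, was 10.70, 10.56 and 10.38 in WT and 10.82, 11.40 and 10.92 in Cav-3KO. All knockout arrays were above wild type (0.50 ± 0.16, adjusted p = 0.0884), and 1 of its other 2 probe sets passed (0.40 ± 0.09, adjusted p = 0.0338). Slc38a3, a glutamine carrier of liver and brain, was also higher on all 3 knockout arrays without passing (0.48 ± 0.15, adjusted p = 0.0751). Slc38a1 differed by −0.41 ± 0.15 (adjusted p = 0.126) and Slc38a10 by −0.36 ± 0.15 (adjusted p = 0.180). All 7 probe sets of Slc38a10 were lower by sign and 0 passed. Slc38a4, Slc38a6 and Slc38a9 differed by 0.28, −0.23 and 0.02. Slc38a9, the lysosomal arginine sensor of mTORC1, had an interval from −0.18 to 0.22, and its 7 probe sets lay between −0.13 and 0.09.

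**Figure D3:**
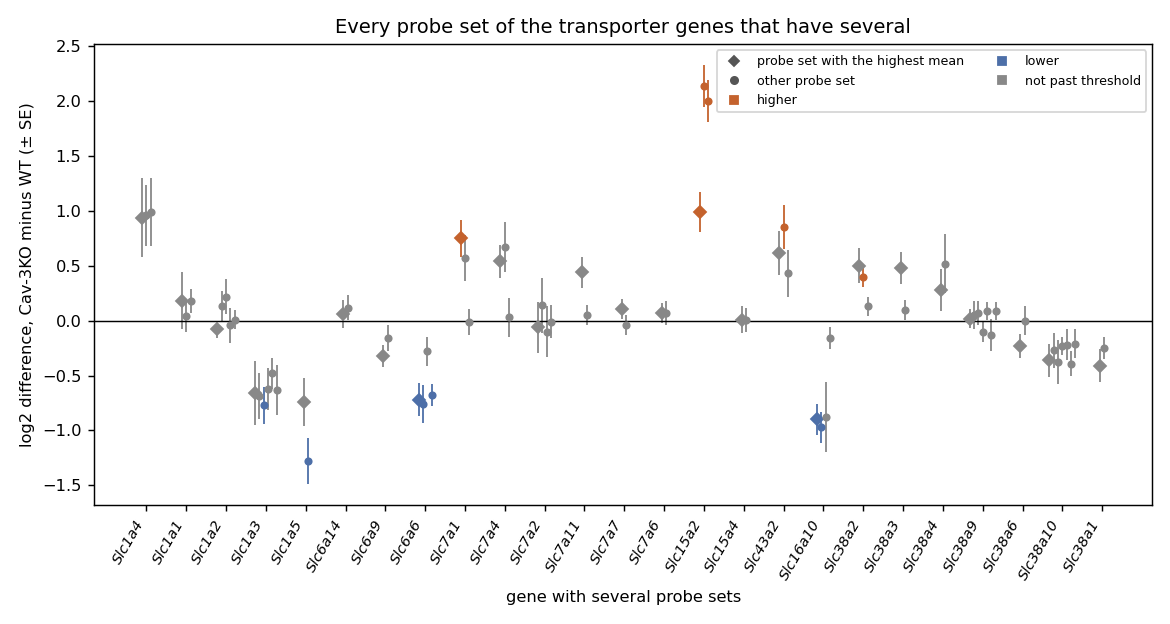
Every probe set of the 25 transporter genes with several is plotted by its log2 difference with SE, diamonds for the one with the highest mean. All probe sets of a gene have the same sign in 20 of the 25 genes, 0 genes have calls in opposite directions, and Slc15a2 spans the widest gap, from 0.99 to 2.14.

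The 37 genes were read by 92 probe sets, of which 16 (17.4%) passed, where 12.3% of all 45037 tested probe sets did. Slc7a5, Slc7a10 and Slc36a2 rest on 1 probe set each. Without probe sets that can match several transcripts the 35 remaining genes gave 7 calls (20%, where 14.7% of all genes left in that fit passed). By the probe set shown, Slc7a5, Slc7a10 and Slc36a2 changed at least 2-fold, and among the others so did the 2 further probe sets of Slc15a2 and the second of Slc1a5 (2.43-fold).

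**Figure D4:**
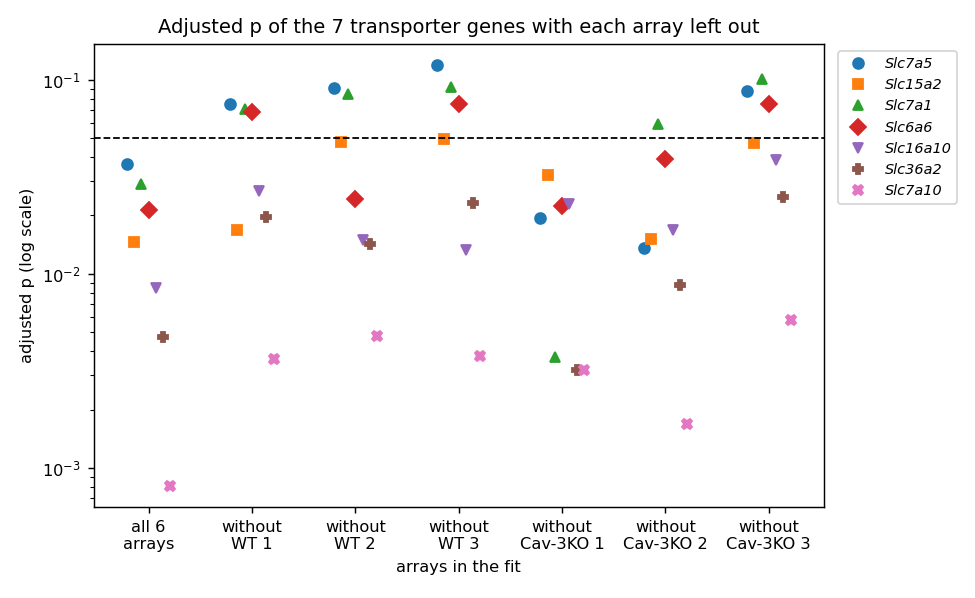
The adjusted p of each of the 7 genes is plotted on a log scale for all 6 arrays and with each array left out, and the dashed line is the threshold of 0.05. Slc7a10, Slc36a2, Slc16a10 and Slc15a2 stay below the line throughout, Slc15a2 reaching 0.0495, while Slc7a5, Slc7a1 and Slc6a6 cross it in 4, 5 and 3 of the 6 fits.

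Between 4 and 11 of the 37 genes passed when 1 array was left out, and the share of all genes that passed moved as well. It was 10.8% of the transporters and 9.98% of all genes without WT 1, 16.2% and 9.23% without WT 2, and 10.8% and 8.08% without WT 3. Without Cav-3KO 1, 2 or 3 it was 29.7%, 21.6% and 10.8% of the transporters and 13.7%, 17.5% and 6.79% of all genes. The number of transporter genes that rose was 1 without WT 1, WT 2, WT 3 or Cav-3KO 3, and 6 without Cav-3KO 1.

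Markers of the gland's cell types moved beside these genes. All 10 measured luminal epithelial markers rose, with summed log2 levels of 94.1 to 99.2 in WT and 110.6 to 111.9 in Cav-3KO, and 6 of 7 basal markers rose (60.7 to 61.9 against 66.8 to 68.3). White adipocyte markers fell in 6 of 8 (92.6 to 94.5 against 86.7 to 89.4) and brown adipocyte markers in 4 of 7 (56.0 to 64.9 against 47.2 to 48.1). The median log2 differences of these lists were 1.51, 0.75, −0.73 and −1.38. B cell markers fell in 5 of 6 (52.6 to 53.7 against 48.9 to 50.2) and T cell markers in 3 of 6 (43.0 to 45.5 against 40.6 to 41.5). Of 8 macrophage markers 1 rose and 1 fell, and 7 endothelial markers gave 1 and 2. Skeletal muscle markers varied most, from 48.6 to 80.3 in WT and from 43.3 to 63.9 in Cav-3KO, with 0 of 8 past the threshold. No marker was at 0, since the authors' method gives every probe set a value. The part of these cell types in the transporter results was not tested, and in bulk tissue fewer cells of a type and less RNA per cell cannot be told apart.

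**Figure D5:**
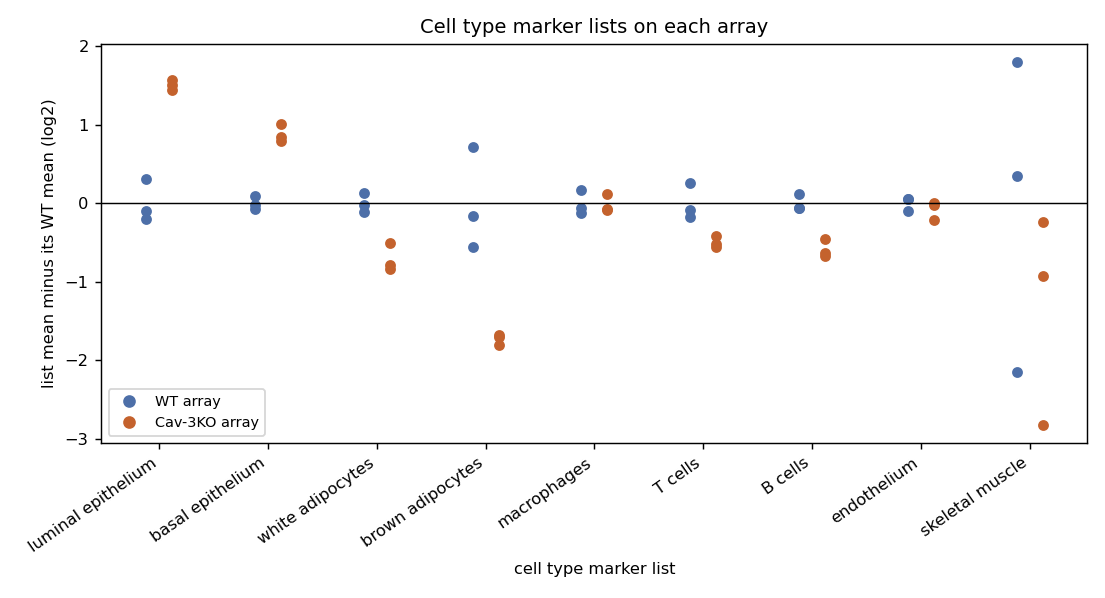
Each point is the mean log2 value of a marker list on 1 array minus the list's WT mean, for 9 cell types. Luminal and basal lists are higher and both adipocyte lists lower on every Cav-3KO array, macrophage and endothelial lists overlap, and the skeletal muscle list spreads widely in both groups.

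Set beside the white adipocyte list, whose members differed by −0.33 to −1.11, Slc7a10 differed by −1.32 and Slc36a2 by −1.03. The brown adipocyte list ran from −0.06 (Dio2) to −3.42 (Elovl3), a range that holds both values. Slc16a10 at −0.9 and Slc6a6 at −0.72, which also fell, lie within the white and brown ranges. They lie within the range of the B cell markers too, from −0.94 (Cd79b) to 0.14 (Jchain). The luminal markers differed by 0.86 to 2.38, a range that holds the 1.55 of Slc7a5 and the 0.99 of Slc15a2, while the 0.75 of Slc7a1 lies below it. The basal markers differed by 0.43 (Oxtr) to 1.39 (Trp63). That range holds the 0.75 of Slc7a1 and the 0.99 of Slc15a2, while the 1.55 of Slc7a5 lies above it. A value within such a range does not show the cells it came from, and which cells the transporter changes came from was not tested.

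Other carriers of amino acids, in the plasma membrane, the lysosome and the mitochondrion, were covered by a list with 30 measured genes. Of these 2 rose and 2 fell, each 6.67% (7.65% and 8.51% of all genes), and 3 of the 4 are mitochondrial. Slc25a13, the aspartate and glutamate carrier of the malate shuttle, was 5.84 ± 0.07 in WT and 7.15 ± 0.34 in Cav-3KO, a rise of 1.31 ± 0.16 (adjusted p = 0.00391). Slc25a44, the mitochondrial carrier of branched-chain amino acids known from brown fat, fell by 1.21 ± 0.17 (adjusted p = 0.00590). Slc25a22, a mitochondrial glutamate carrier, fell by 0.73 ± 0.09 (adjusted p = 0.00375). Slc6a15, a carrier of branched-chain amino acids and proline, rose by 1.06 ± 0.23 from a dim 3.61 ± 0.26 (adjusted p = 0.0227). The next by p, Slc6a20a, did not pass (−0.40 ± 0.11, adjusted p = 0.0560).

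Inside the cell, amino acid shortage is read by the kinase Eif2ak4 and the transcription factor Atf4, and sufficiency by mTORC1 on the lysosome. Of 42 measured genes of these paths 2 rose (4.76%, all genes 7.65%) and 6 fell (14.3%, all genes 8.51%), with a median of −0.12. Wdr59, part of a complex that relays amino acid signals to mTORC1, rose by 0.99 ± 0.13 (adjusted p = 0.00419), and Sesn3, an inhibitor of mTORC1, by 0.88 ± 0.17 (0.0176). Rragc, a GTPase that recruits mTORC1, fell by 0.56 ± 0.10 (0.0112), Mtor, the kinase itself, by 0.47 ± 0.10 (0.0189), and Stc2, a secreted target of Atf4, by 1.43 ± 0.24 (0.0108). Only 1 of the 3 probe sets of Mtor passed. Atf4 (0.20 ± 0.13, adjusted p = 0.378) and its target Asns, asparagine synthetase (−0.53 ± 0.18, adjusted p = 0.1), did not pass. The number of calls, 8, was 5, 4 and 3 without WT 1, WT 2 or Cav-3KO 3, fits in which fewer of all genes passed too, and 5 with skeletal muscle markers as a covariate.

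Enzymes that load amino acids onto transfer RNA, with the scaffold proteins that hold them together, were covered in part. The list chosen held 23 measured genes. Of these 10 rose (43.5%, where 7.65% of all genes did), 0 fell and 13 did not pass, and the median was 0.46. By sign 20 were higher, and Fars2, Wars and Gars were lower (−0.24, −0.06 and −0.05), with 1 probe set of Fars2 past the threshold. Qars, for glutamine, had log2 values of 10.29, 9.98 and 10.12 in WT and 10.92, 10.91 and 10.95 in Cav-3KO, a rise of 0.79 ± 0.10 (adjusted p = 0.00406). Rars, for arginine, rose by 0.80 ± 0.14, Vars, for valine, by 0.69 ± 0.13, Sars, for serine, by 0.46 ± 0.10 and the scaffold Aimp1 by 0.65 ± 0.10 (adjusted p = 0.0110, 0.0171, 0.0219 and 0.00754). Of the 4 probe sets of Qars 2 passed, and of the 2 of Sars 1 did. The count was 3 without WT 1, WT 2 or WT 3 and 4 without Cav-3KO 3, where the share of all genes past the threshold fell from 16.2% to 9.98%, 9.23%, 8.08% and 6.79%. Luminal markers rose beside this list, as given above, and their part in it was not tested.

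Pairs of arrays of the same genotype correlated at r of 0.990 to 0.995, pairs of different genotypes at 0.977 to 0.987, and array medians lay between 5.77 and 5.80. Cav3 itself was 4.85 ± 0.15 in WT and 4.77 ± 0.06 in Cav-3KO (SD, n = 3; adjusted p = 0.679) on a dim probe set, so it did not check the labels.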

How the data were processed

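Total RNA from 6 mammary gland samples was reverse transcribed from an oligo-dT primer, copied into biotin-labelled cRNA and read on Affymetrix mouse arrays, per the labels' protocols. The authors deposited log2 values, 1 per probe set and array, made with RMA per the submitters' processing notes. The RMA version is not given in the sources used here. RMA corrects background, quantile normalizes across arrays, which removes any shift shared by most transcripts, and compresses folds of dim probe sets.

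Of 45101 probe sets, 64 controls were left out and 45037 tested, with no filter. From the platform annotation 34945 had 1 symbol, 932 several (not named) and 9160 were not listed; symbols were updated through Entrez identifiers to a RefSeq table of GRCm38.p6, where 204 found no match. Knockout was compared with wild type by limma 3.58.1 in R 4.3.3 (lmFit, eBayes, two-sided, genotype as the only term), with Benjamini-Hochberg adjustment over all tested probe sets. Differences are knockout minus wild type with moderated SE and 95% intervals. The fit was tested on simulated data, with 50 probe sets changed at each size. At an adjusted p under 0.05 it recovered 14% of log2 changes of 0.5, 72% of 1, 92% of 2 and 98% of 3. Far fewer probe sets were changed there than passed in these data, so these rates may not carry over. Only 3 arrays per group limit the precision.

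The transporter genes, other lists and markers were chosen with earlier results of these data known, so no set test was run. Values by array are given for genes past the threshold and for the 6 largest differences short of it (Slc1a4, Slc1a5, Slc1a3, Slc43a2, Slc43a1 and Slc7a4), and up to 5 genes of each other list by p; Slc3a2, Slc7a11, Slc38a2 and the genes named beyond these were chosen after their values were seen. Lists lost Slc38a8, Slc38a11, Rragb and Dars, which matched no single-gene probe set here. Alternatives were renormalization, a dim filter, array weights, a trended robust prior, a replicate block, leaving out each array, other probe set choices and thresholds. After seeing the data, the skeletal muscle marker mean was added as a covariate. Same-numbered arrays did not deviate together (correlations of −0.05, 0.19 and −0.02), so the numbers were not taken as pairs. Figures were drawn with matplotlib 3.10.9.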

Additional observations from a re-analysis of the deposited data

How the results depend on the processing

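There were only 3 arrays a group. By the probe set shown, the smallest transporter difference past the threshold was −0.72 (Slc6a6). Those of Slc1a4 (0.94) and Slc1a5 (−0.74) were larger and did not pass. Of 621 values of single transporter genes under 17 other settings, 555 kept their direction and side of the threshold, 18 lost and 23 gained a call, and 25 changed sign; none of the 7 genes past the threshold changed sign. The 3 transporter genes that rose became 0 at a threshold of 0.01, 8 at 0.10, 5 with the replicate block and 1 to 6 with 1 array left out. The 4 that fell became 7 at 0.10. In either direction 8.11% of the transporters and 4.77% of all genes passed at 0.01, and 24.3% and 15.8% with the block. The block brought in Slc1a4 and Slc7a11 (adjusted p = 0.0430 and 0.0419) and moved no count of calls in the other lists by more than 1.5 times. Deviations from the group means correlated best between WT 3 and Cav-3KO 1, at 0.26, so not every array deviated most like its own number. The median of −0.02 ran from −0.11 to 0.02 with 1 array left out. Calls for amino acid response and mTORC1 sensing were 8, then 1 at 0.01, 5 with the muscle covariate, 5 without probe sets that can match several transcripts and 3 to 10 with 1 array left out. The 10 synthetase calls became 2 at 0.01 and 3 to 11 with 1 array left out. All sign changes were in genes short of the threshold. With quantile normalization again, Slc15a4, Slc38a9 and Slc3a2 differed by −0.0023, −0.01 and 0.01, and Slc3a2 by 0.0033 with median centring. With the muscle covariate Slc15a4, Slc38a9, Slc3a1 and Slc3a2 differed by −0.03, −0.01, 0.04 and 0.07. Slc1a2 differed by 0.05 with averaged probe sets and by 0.13 without multi-match ones. With 1 array left out, differences ran from −0.08 to 0.08 for Slc15a4, −0.17 to 0.4 for Slc1a1, −0.19 to 0.03 for Slc36a4, −0.02 to 0.07 for Slc38a9, −0.14 to 0.09 for Slc3a1, −0.11 to 0.06 for Slc3a2, −0.06 to 0.18 for Slc6a14 and −0.23 to 0.22 for Slc7a2. The cause of these changes was not tested.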

Other observations

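Within the knockout group the transporters did not all peak on the same array, but Cav-3KO 2 was highest for 9 of the 17 genes with a difference above 0 (52.9%), where it was highest for 34.8% of all such genes. It was also highest among knockout arrays for 10 of the 20 transporters with a difference below 0 (50%), where it was for 35.1% of all such genes. The 9 included Slc7a5, Slc1a4, Slc38a2, Slc38a3, Slc43a2 and Slc7a4. Cav-3KO 2 also had the highest log2 value of the whey protein gene Wap, 12.48 against 8.43 and 10.19 in Cav-3KO 1 and 3. The casein gene Csn2 was highest there too, at 13.43 against 13.06 and 13.18. The luminal marker means lay close together, at 11.06 in Cav-3KO 2 and 11.12 and 11.19 in Cav-3KO 1 and 3. Slc15a2 was not among the 9 genes: its shown probe set was lowest in Cav-3KO 2, at 10.15, although a dimmer one was highest there, at 10.21.

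In the wild-type group WT 2 stood out for milk genes, with Csn2, a casein, at 11.71 against 8.36 and 8.65 in WT 1 and 3, and Wap at 9.5 against 5.56 and 5.79. The transporter genes past the threshold that rose in the knockout were not highest there: Slc7a5 was 7.14 in WT 2 beside 7.30 and 6.84, Slc15a2 was 9.33 beside 9.68 and 9.08, and Slc7a1 was 8.30 beside 8.39 and 8.31. Slc1a4, which did not pass, was highest in WT 2, at 6.37 beside 6.01 and 5.76, while Slc38a2, Slc38a3 and Slc7a4 were not. The mean of the skeletal muscle markers was also highest in WT 2, at 10.03 against 8.58 and 6.08 in WT 1 and 3. These readings were noticed after the values were seen and were not tested.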
